A study of Penicillium oxalicum with 6 samples.

Results

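The tag profile described here belongs to strain M12 of the filamentous fungus Penicillium oxalicum grown on glucose. M12 is an auxotroph that needs uracil: it derives from the wild-type strain 114-2 and carries a stop mutation in pyrG, the gene for orotidine monophosphate decarboxylase. Conidia first grew for 20 h in Vogel's medium at 30 °C, and the washed mycelia then spent 24 h in fresh medium whose carbon source was 2% glucose. The series holds 6 libraries, 1 for each of 3 strains in 2 media, and M12 in glucose has a single library. No comparison with another strain or medium is made. The members are the 8902 gene identifiers beginning with PDE_ among the 9184 rows of the series' table.

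Penicillium oxalicum lives on plant litter and secretes enzymes that break down cellulose, hemicellulose, pectin and starch. In many filamentous fungi the genes for such enzymes are held low while glucose is plentiful, through carbon catabolite repression by the zinc finger protein CreA. Glucose is used through glycolysis, the citrate cycle and the mitochondrial respiratory chain, and growth of the hyphal tip draws on ribosomes, secretion and cell wall assembly. Asexual sporulation, which forms conidia on aerial stalks, is switched on by the regulator BrlA and later needs WetA, hydrophobins and pigment.

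The assay captures polyadenylated RNA, cuts its cDNA at the CATG sites of the enzyme NlaIII and counts the short tag beside the cut. A transcript is represented by its tag and not by fragments along its length, and a transcript without a CATG site gives none. A level is therefore given as TPM, which in these data is tags scaled to a library of 1000000 tags with no division by gene length, and 1 tag is worth 0.298 TPM. With 1 library there is no replicate, so no test between conditions exists. Intervals are exact 95% binomial intervals (Clopper-Pearson for shares and levels) that cover counting error only, since PCR copies of a tag are not independent molecules.

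Of the tags in the library total stated with the table, 2048846 (61.0%) were assigned to the 8902 identifiers and 1310749 (39.0%) to none of them. Tags were found for 8262 identifiers (92.8%), and 640 had none. No identifier had exactly 1 tag and 306 had exactly 2, so the 0 of an identifier may include tags seen once, and no upper limit is attached to it. The median identifier had 43 tags (12.8 TPM), the quartiles lay at 11 and 128 tags, and the mean was 230 tags.

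Tags were concentrated in few genes. PDE_09832 alone held 277393 tags, 13.5% of those assigned (95% interval 13.49% to 13.59%) and 8.26% of the whole library. Its best protein match is an unnamed Penicillium chrysogenum product, and its only Gene Ontology (GO) function is structural constituent of the cell wall, a term no other identifier carries. Its GO process is sporulation with formation of a cellular spore. Its level of 82567 TPM was 7.34-fold (7.26 to 7.42) that of the next gene. The 10 most abundant genes held 24.2% of assigned tags (24.10% to 24.22%), the 100 most abundant 44.7% (44.62% to 44.76%) and the 1000 most abundant 77.0%. Of the assigned tags, 25% came from 12 genes, 50% from 153 and 90% from 2471. The 4451 identifiers lowest in the ranking held 3.13%.

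**Figure D1:**
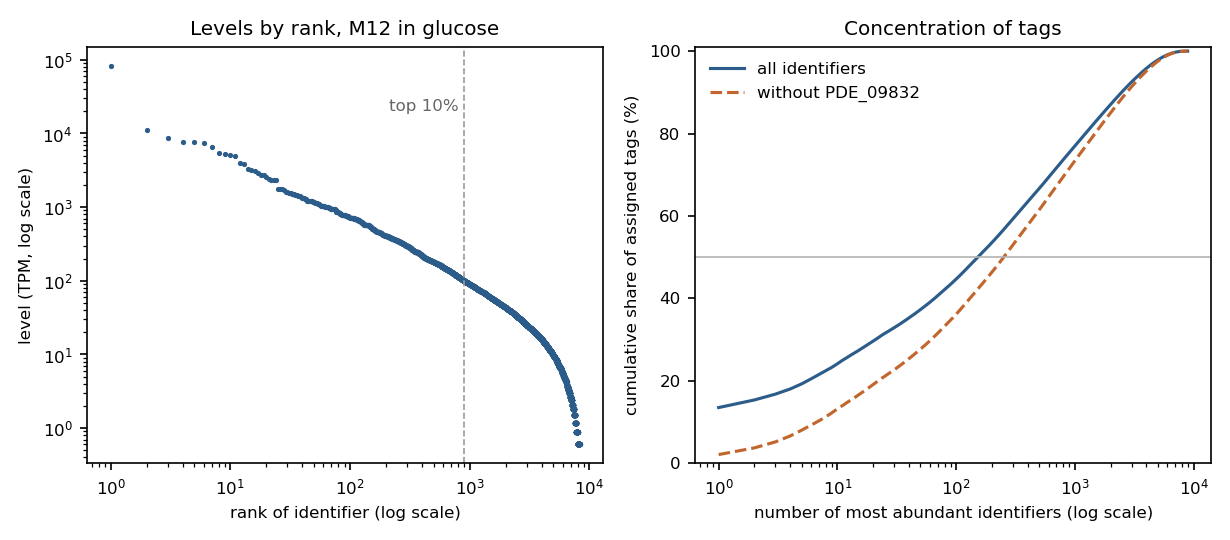
Left, the level (TPM, log scale) of each identifier with tags in the single M12 glucose library against its rank (log scale), 1 point per identifier; the dashed line marks the top 10%, 890 identifiers. Right, the cumulative share of assigned tags (%) held by the most abundant identifiers, for all identifiers and without PDE_09832; the curves reach 50% at 153 and 252 identifiers.

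Among the 30 most abundant genes, 19 carried a GO function, GO process or KEGG pathway term and 14 had a product description. Behind the cell wall gene stood penicillopepsin (PDE_07927, 37812 tags, 11255 TPM), a secreted aspartic protease. A pair of metal carriers were also in the first 10. The siderochrome-iron transporter PDE_06096, of a family that takes up iron bound to siderophores, had 5477 TPM, and the Ctr copper transporter PDE_05901, of a family that brings copper across the membrane, had 5144 TPM. Their tags differed by a factor of 1.06 (1.04 to 1.09).

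Enzymes of redox and organic acid metabolism formed another part of the top. Manganese superoxide dismutase (PDE_00326), which removes superoxide, had 25605 tags (7621 TPM). The dioxygenase PDE_09761, matched to 4-hydroxyphenylpyruvate dioxygenase of tyrosine breakdown, had 24826 tags (7390 TPM). Its GO function names only a general dioxygenase. PDE_08904, whose GO function is 4-hydroxyphenylpyruvate dioxygenase activity, had 186 tags (55.4 TPM). Formate dehydrogenase (PDE_01080), which oxidises formate to carbon dioxide, reached 4996 TPM. PDE_06062, annotated as oxaloacetase, the enzyme that splits oxaloacetate into oxalate and acetate, reached 4020 TPM. PDE_03821, annotated as mannitol-1-phosphate 5-dehydrogenase, which makes the sugar alcohol precursor mannitol phosphate, reached 2594 TPM, and an L-ascorbate oxidase match (PDE_02128) 2436 TPM.

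Carbohydrate use and growth were represented by single members of their families. The sugar transporter PDE_09377 had 2708 TPM and the glucoamylase PDE_09417, which releases glucose from starch, had 2314 TPM. PDE_08540 is matched to Grg1, known in Neurospora crassa as a glucose-repressible gene, and had 13104 tags (3900 TPM) in this glucose culture. The mitochondrial ADP/ATP carrier PDE_02785 had 1787 TPM and translation initiation factor 5A (PDE_02849) 1784 TPM, a difference within counting error. Carboxypeptidase Y (PDE_08101), a vacuolar peptidase, had 1702 TPM, and the conidial hydrophobin RodA (PDE_00021), which coats spores with a water-repellent layer, had 1587 TPM.

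The remaining members of the first 30 had little or no functional annotation. PDE_00327, at rank 3 with 28806 tags (8574 TPM), is a conserved hypothetical protein. PDE_03437 (7594 TPM, transferase activity), PDE_09166 (6522 TPM, hydrolase activity) and PDE_08756 (5185 TPM, placed in the mineral absorption map) had only broad terms. PDE_09236 (2368 TPM) carried the process term melanin metabolism and PDE_05655 (2310 TPM) that of fruiting body development, neither with a product name. PDE_07911 (3334 TPM), PDE_00897 (3200 TPM), PDE_05882 (3127 TPM), PDE_06391 (2911 TPM), PDE_00509 (2764 TPM), PDE_04088 (1758 TPM) and PDE_05900 (1603 TPM) had no term at all.

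The order of these genes was only partly resolved by their counts. Of the 30 steps from one gene to the next in rank, 18 exceeded counting error at the 95% level and 12 did not. Superoxide dismutase PDE_00326 and PDE_03437 could not be ordered, with a ratio of 1.004 (0.986 to 1.02), nor could PDE_08756 and the copper transporter PDE_05901, with a ratio of 1.01 (0.987 to 1.03). The first 3 ranks were each separated from the next.

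**Figure D2:**
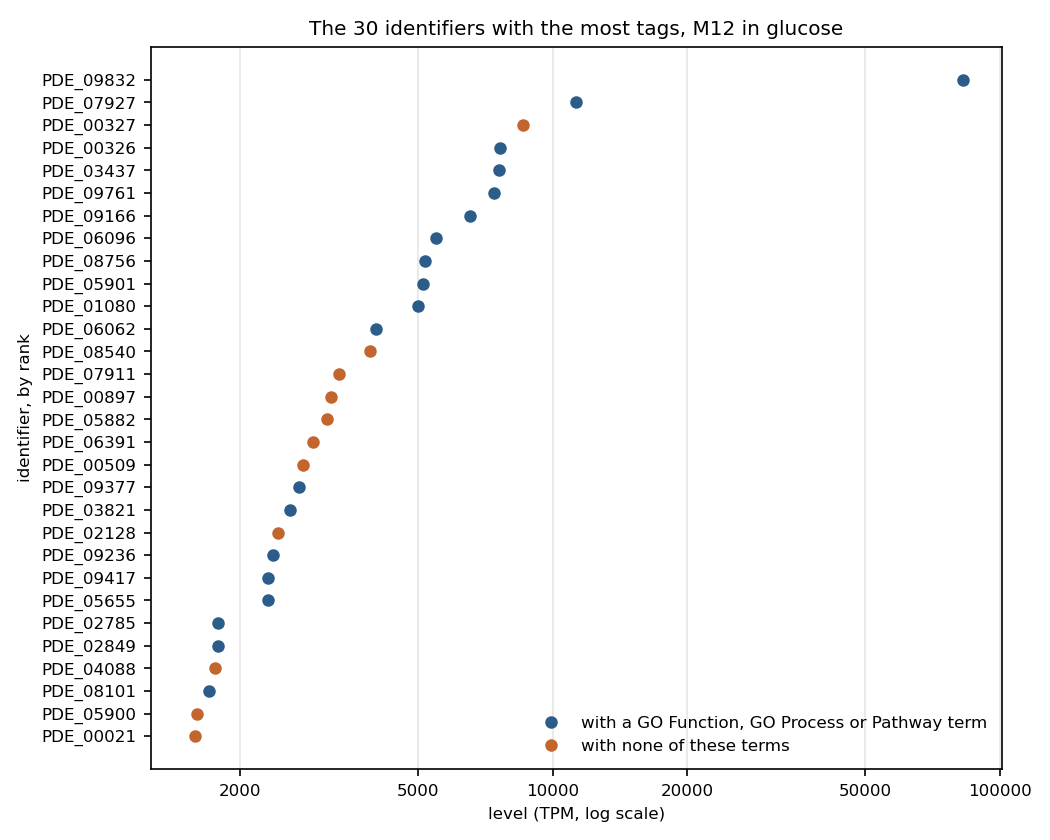
Level (TPM, log scale) of the 30 identifiers with the most tags in the M12 glucose library, in order of rank, with exact 95% counting intervals that are mostly narrower than the points; colour tells identifiers with and without an annotation term. PDE_09832 at 82567 TPM lies far to the right of PDE_07927 at 11255 TPM, and 11 of the 30 carry no term.

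Several abundant genes had neighbouring locus numbers. Among the 100 most abundant, 22 genes fell into 10 runs of successive numbers, and these runs held 9.65% of assigned tags. The run PDE_00325 to PDE_00327, which contains superoxide dismutase, held 2.89% of assigned tags, with levels from 1429 to 8574 TPM. The run PDE_03437 to PDE_03439 held 1.61% and includes PDE_03438 (1028 TPM), annotated as a copper ion transporter. The copper transporter PDE_05901 adjoined PDE_05900, the siderochrome transporter PDE_06096 adjoined PDE_06097 (1208 TPM, no best match), and oxaloacetase PDE_06062 adjoined PDE_06061 (759 TPM). Histones H2B (PDE_01489, 1137 TPM) and H2A (PDE_01490, 995 TPM) formed a further pair. A successive number was no rule for abundance: penicillopepsin PDE_07927 is followed by the glycoside hydrolase family 45 gene PDE_07928 with 6 tags and the endoglucanase PDE_07929 with 0. Locus numbers stand in for gene order here, because no coordinates were used.

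Below, gene groups are described by their summed share of assigned tags, the median level of their members beside the 12.8 TPM of all identifiers, and 2 counts: members in the top 10% of the ranking (at least 339 tags, 100.91 TPM), which is 10% of all identifiers by construction, and members with 0 tags, which are 7.19% of all identifiers. No group was tested for enrichment. The 42 lists described hold 945 genes and 19.9% of assigned tags. Most lists were drawn by product description, which 2587 identifiers (29.1%) have. Family members without such a name are therefore left out of those lists. Named genes also stood higher in general: 13.6% of the 2587 were in the top 10%, 4.48% had 0 tags and their median was 17.0 TPM. The median of 29 of the 42 lists was above that of all identifiers, so a list above it is not unusual. Of the 100 most abundant genes, 29 are in a list and 71 are in none.

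The translation machinery stood high as a group. The 54 cytosolic ribosomal proteins had a median of 190 TPM, held 2.27% of assigned tags, and 35 of them were in the top 10%. Their most abundant members were S8-A (PDE_02864, 1111 TPM), L43 (PDE_07853, 823 TPM), the ubiquitin-S31 fusion (PDE_04897, 798 TPM) and S25 (PDE_00106, 709 TPM). L9 (PDE_06792) and S9 (PDE_09210) had 0 tags, and whether their transcripts hold a CATG site was not tested. The 21 mitochondrial ribosomal proteins had a median of 24.7 TPM and none in the top 10%. The cytosolic set as a whole had 23.7-fold (22.6 to 24.8) the tags of the mitochondrial set, which has fewer members.

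Translation factors were less even. Of 24 elongation and initiation factors 8 were in the top 10%, with a median of 64.0 TPM. Elongation factor EF-2 (PDE_08649), which moves the ribosome along the message, had 1090 TPM. EF-1 alpha (PDE_02596), which delivers charged tRNA, had 856 TPM, and the fungal factor eEF-3 (PDE_09257) had 779 TPM. A subunit of initiation factor 3 (PDE_06766) had 0 tags. The 15 aminoacyl-tRNA synthetases, which charge tRNAs, ranged from 2.68 to 81.6 TPM around a median of 40.8 TPM, with threonyl-tRNA synthetase (PDE_08271) highest and none in the top 10%.

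Central carbon metabolism was above the median of all identifiers, unevenly so. Of 12 genes with the glycolysis process term, 5 were in the top 10% and the median was 77.2 TPM. Fructose-bisphosphate aldolase (PDE_04802) had 3783 tags (1126 TPM) and glyceraldehyde 3-phosphate dehydrogenase (PDE_09952) 2844 tags (847 TPM), together 71.7% of the tags of the group. Enolase (PDE_02546) followed with 196 TPM and pyruvate kinase (PDE_05188) with 193 TPM. Phosphoglycerate kinase (PDE_07158), which acts between the dehydrogenase and enolase, had 25 tags (7.44 TPM). Among the hexose-phosphorylating enzymes that start the pathway, the hexokinase PDE_03592 had 289 tags, glucokinase (PDE_03370) 23 and hexokinase-1 (PDE_00878) 6. PDE_07688, which has no product name but the same GO functions as hexokinase-1, had 107 tags (31.9 TPM).

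The citrate cycle had the higher median. Its 18 genes had a median of 130 TPM, 11 were in the top 10% and all had tags. The iron-sulphur subunit of succinate dehydrogenase (PDE_07264, 699 TPM), the malate dehydrogenase PDE_02150 (570 TPM) and the succinate dehydrogenase flavoprotein (PDE_01648, 366 TPM) led it. Isocitrate lyase (PDE_08297), the glyoxylate shunt enzyme that lets fungi grow on acetate and fatty acids, carried the same term and had 972 tags (289 TPM). Of 5 pentose phosphate enzymes only transaldolase (PDE_09398, 697 TPM) was in the top 10%.

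Respiration genes were widely present. None of the 96 genes on the oxidative phosphorylation map had 0 tags, 39 were in the top 10% and the median was 65.6 TPM. The 11 genes with the process term for proton-coupled ATP synthesis had the highest median of any GO process class, 361 TPM, and 8 of them were in the top 10%. The beta subunit of the ATP synthase (PDE_07279) had 3157 tags (940 TPM), the gamma chain (PDE_02994) 2607 (776 TPM), PDE_04313 2396 (713 TPM) and PDE_06464 1549 (461 TPM). The beta subunit exceeded the gamma chain by a factor of 1.21 (1.15 to 1.28). Of 2 alpha subunit matches, PDE_06476 had 335 TPM and PDE_01144 19.4 TPM.

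A mixed list of alcohol, aldehyde and acetate enzymes recognised by name had a median below that of all identifiers. The 14 alcohol, aldehyde and acetate enzymes of that list had a median of 8.63 TPM and only an aryl-alcohol dehydrogenase (PDE_03369, 264 TPM) in the top 10%. Pyruvate decarboxylase (PDE_04873), which diverts pyruvate to acetaldehyde, had 59.5 TPM, the alcohol dehydrogenases PDE_04020 and PDE_00833 had 45.0 and 35.4 TPM, and the zinc-containing alcohol dehydrogenase PDE_05840 had 0 tags. The GO function alcohol dehydrogenase (NAD) activity, looked up after the list values were seen, adds genes without such a name. Of its 5 genes PDE_09299 had 3351 tags (997 TPM, rank 64), the formaldehyde dehydrogenase match PDE_03064 97.0 TPM and PDE_03317 0 tags. The first of these is also annotated as a methylglyoxal reductase. Mitochondrial carriers were dominated by the ADP/ATP carrier already named. The phosphate carrier PDE_00444 had 298 TPM, the dicarboxylate carriers PDE_04229 and PDE_08879 had 144 and 103 TPM, and the median of the 15 was 17.0 TPM.

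**Figure D3:**
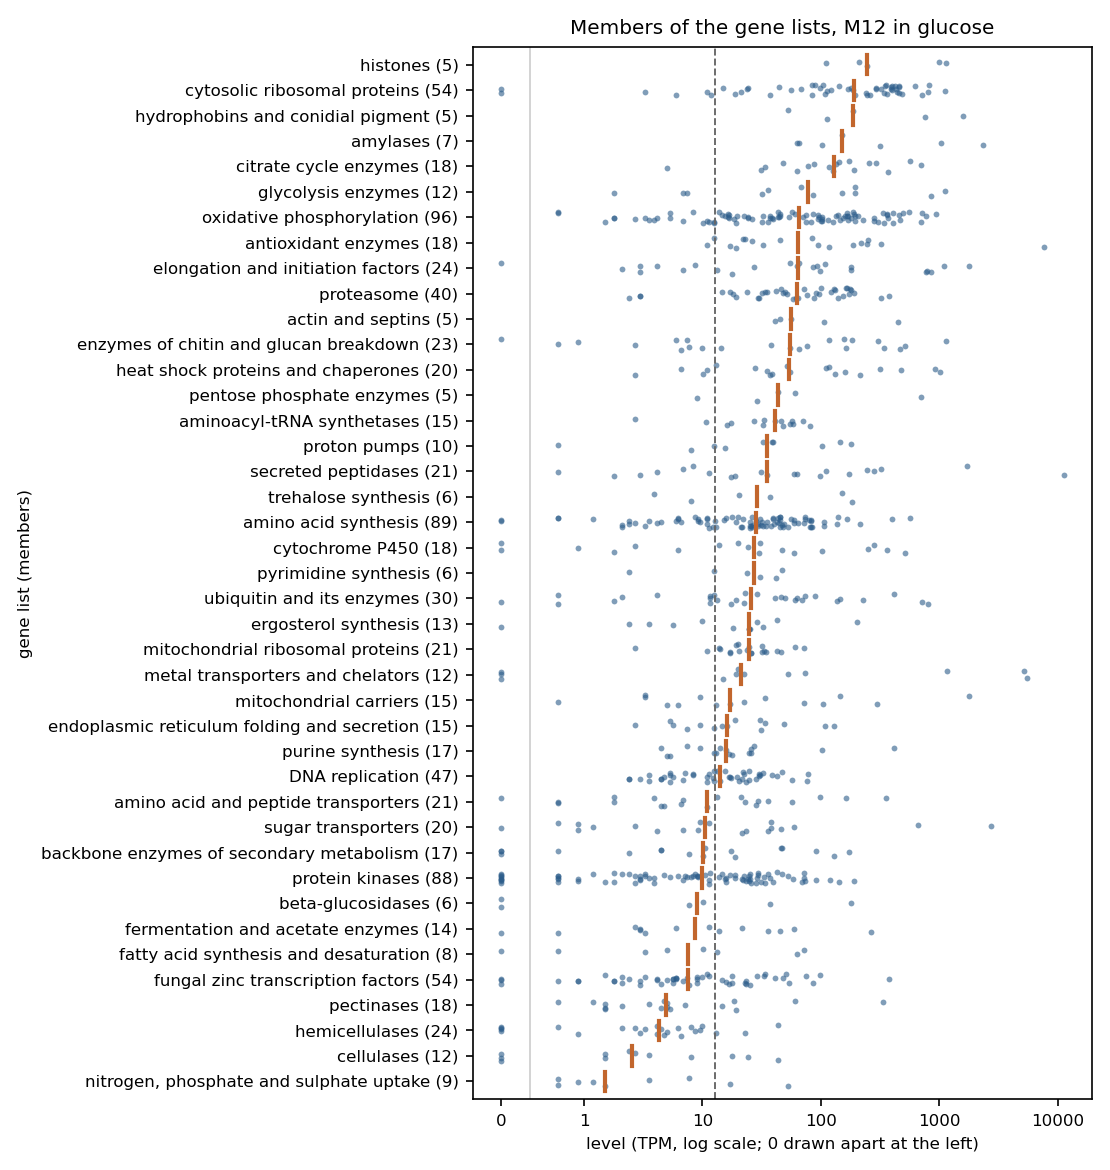
Level (TPM, log scale, with 0 drawn apart at the left) of each member of the gene lists with at least 4 members, 1 point per gene, ordered by the list median (orange bar); the dashed line is the median of all 8902 identifiers, 12.8 TPM. Histones and cytosolic ribosomal proteins lie at the top, hemicellulases, cellulases and the nitrogen, phosphate and sulphate list at the bottom, and superoxide dismutase and penicillopepsin stand far to the right of their lists.

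Enzymes against starch and enzymes against plant cell walls lay at opposite ends. All 7 amylases and alpha-glucosidases had tags and 5 were in the top 10%, with a median of 152 TPM. Behind the glucoamylase PDE_09417 came alpha-amylase (PDE_01201), which cuts starch internally, with 1035 TPM. The alpha-glucosidases PDE_03966 and PDE_00400, which free glucose from maltose and short chains, had 317 and 152 TPM.

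The 12 cellulases had a median of 2.53 TPM, none in the top 10% and 355 tags in all. The 7 amylases thus had 38.3-fold (34.5 to 42.7) the tags of the cellulases, from fewer genes. That ratio leans on few genes, since the glucoamylase PDE_09417 held 57.2% of the amylase tags and PDE_00698 41.4% of the cellulase tags. Without these top members the amylases held 0.284% of assigned tags and the cellulases 0.0102%. The endoglucanases PDE_00698, PDE_09586, PDE_09969 and PDE_00507, which cut cellulose chains internally, had 147, 82, 60 and 27 tags. Cellobiohydrolase PDE_07945, which releases cellobiose from chain ends, had 12 tags (3.57 TPM), and it is named here after its value was seen. The exo-cellobiohydrolase PDE_05445, endoglucanase-4 (PDE_01261) and endoglucanase I (PDE_07929) had 0. Among the 6 beta-glucosidases, which split cellobiose to glucose, beta-glucosidase I (PDE_02736) had 598 tags (178 TPM) and PDE_01565 126, whereas PDE_02905 and PDE_09535 had 0.

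Hemicellulases and most pectinases were similarly low. The 24 hemicellulases had a median of 4.32 TPM, 550 tags in all and none in the top 10%. Xylanase B (PDE_02101), which cuts the xylan backbone, was highest of this list with 147 tags (43.8 TPM). The 18 genes with the process term for xylan breakdown had a median of 7.74 TPM and none in the top 10%. Their highest member was PDE_06067 (48.5 TPM), which has no product name and is outside the list. An arabinofuranosidase (PDE_00276), an alpha-galactosidase (PDE_02514), a mannanase (PDE_06438) and feruloyl esterase A (PDE_08709), which act on side chains or mannan, had 0. All 18 pectinases recognised by name had tags, at a median of 4.91 TPM. The pectate lyase PDE_06068 alone had 1115 tags (332 TPM), 67.9% of the list. Without that lyase the pectinases held 0.0257% of assigned tags. Of the 11 genes with the process term for pectin breakdown, 1 had 0 tags.

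Enzymes that act on the fungal wall itself were higher than those against plant walls. The 23 genes for chitin and beta- or alpha-1,3-glucan turnover had a median of 54.8 TPM, and 9 were in the top 10%. The chitinase PDE_08122 had 1146 TPM, the glucanosyltransferase Gel1 (PDE_04618), which elongates and remodels wall glucan, 514 TPM, and the endochitinases PDE_01573 and PDE_04898 466 and 343 TPM. A mutanase match (PDE_10011), of a family that cuts alpha-1,3-glucan, had 0 tags. Wall synthases recognised by name were an alpha-1,3-glucan synthase (PDE_04685) with 15 tags and a chitin synthase match (PDE_09407) with 2. By GO function, looked up after these values were seen, 6 genes have chitin synthase activity, at a median of 41.4 TPM. They include CHS4 (PDE_02083, 107 TPM), CHS3 (PDE_08046, 98.5 TPM), PDE_01856 (63.4 TPM) and PDE_08662 (19.4 TPM), enzymes that build chitin chains. The only gene with 1,3-beta-D-glucan synthase activity, PDE_08248, had 670 tags (199 TPM).

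The summed tags of the peptidases came mostly from 1 gene. The 21 secreted and vacuolar peptidases held 2.37% of assigned tags, of which penicillopepsin accounted for 77.9%, and it had 6.61-fold (6.43 to 6.80) the tags of carboxypeptidase Y. Without penicillopepsin the list held 0.523%. Its median was 35.1 TPM, 7 members were in the top 10% and all had tags. A vacuolar serine protease (PDE_09396) had 321 TPM and extracellular metalloproteinase 3 (PDE_01100) 280 TPM. Intracellular turnover was more even: all 40 genes on the proteasome map had tags, with a median of 63.3 TPM and a maximum of 375 TPM (PDE_06997), and 13 were in the top 10%. Polyubiquitin (PDE_03961), the tag that marks proteins for the proteasome, had 719 TPM. The 15 genes of endoplasmic reticulum folding and secretion had a median of 16.1 TPM, and a signal peptidase subunit (PDE_09467) led them with 129 TPM.

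Stress proteins were present throughout. All 20 heat shock proteins and chaperones had tags, 9 were in the top 10% and the median was 53.4 TPM. The small heat shock protein PDE_00175, matched to the 30-kD protein of Aspergillus nidulans, had 3414 tags (1016 TPM). Hsp90 (PDE_09149), a chaperone of signalling proteins, had 3071 (914 TPM), and PDE_02095 and PDE_02505 had 471 and 315 TPM. Of 18 antioxidant enzymes 7 were in the top 10%. Superoxide dismutase PDE_00326 held 81.6% of their tags and 23.6-fold (22.2 to 25.1) those of cytochrome c peroxidase (PDE_05494, 324 TPM). A glutathione S-transferase (PDE_04167, 249 TPM) and glutathione peroxidase (PDE_04919, 244 TPM), which use glutathione against toxic compounds and peroxides, followed.

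Each transport family had a few members far above the rest. Of 20 sugar transporters recognised by name 2 were in the top 10% and the list median was 10.4 TPM. The GO process carbohydrate transport holds 37 genes, 6 of them in the top 10%, at a median of 9.82 TPM. PDE_09377 held 73.7% of the list and 4.12-fold (3.93 to 4.32) the tags of the facilitated glucose transporter PDE_00652 (657 TPM). PDE_00753 and PDE_04150 had 59.8 and 46.4 TPM, and the hexose transporter match PDE_09534 had 0. Amino acid and peptide transporters, 21 genes, had a median of 11 TPM. A GABA permease match (PDE_02073, 352 TPM) and a neutral amino acid permease (PDE_02763, 163 TPM) led them, and the permease PDE_01996 had 0.

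Metal uptake reached the highest levels of any transport list. The 12 metal transporters and chelators held 1.97% of assigned tags at a median of 21.3 TPM, and 3 were in the top 10% while 3 had 0 tags. The siderochrome transporter PDE_06096 and the copper transporter PDE_05901 made up 88.6% of these tags. A further copper transporter, PDE_05328, had 1168 TPM and another, PDE_06093, 73.8 TPM. PDE_03438 (1028 TPM), annotated as a copper ion transporter, has no product name and is outside this list. The low-affinity iron transporter PDE_04140, the siderophore transporter mirB (PDE_06674) and a metalloreductase (PDE_07064) had 0 tags. Transporters and reductases for ammonium, nitrate, phosphate and sulphate were the lowest list of all by median. Its 9 genes had a median of 1.49 TPM and none in the top 10%, and the sodium/phosphate symporter PDE_07679 was highest with 52.4 TPM. The phosphate transporters PDE_03816, PDE_05472 and PDE_04660 had 17.0, 7.74 and 3.57 TPM. Vacuolar and plasma membrane proton pumps, 10 genes, had a median of 35.3 TPM and were led by subunit B of the V-type ATPase (PDE_08686, 181 TPM).

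Markers of vegetative growth and of sporulation were both found in the mycelium. Gamma actin (PDE_01092) had 448 TPM, further actin matches (PDE_07538 and PDE_00169) 106 and 45.2 TPM, and the septins PDE_06826 and PDE_09818, which form rings at division sites, 56.3 and 41.1 TPM. Gamma tubulin (PDE_00180) had 5.06 TPM. It was the only tubulin found by name, so levels of other tubulins are not given. All 5 histones named as such were in the top 10%, at a median of 243 TPM. H1 (PDE_01572) had 243 TPM, H4.2 (PDE_08392) 210 TPM and H3 (PDE_00233) 110 TPM, below the H2B and H2A pair given above. H2B exceeded H2A by a factor of 1.14 (1.09 to 1.20). PDE_00232, which carries the nucleosome assembly term beside H3 but no histone name, had 1197 TPM.

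Of the conidial genes, BrlA (PDE_00087) had 304 tags (90.5 TPM, rank 995) and WetA (PDE_08333) 3. All 5 hydrophobin and pigment genes recognised by name had tags and 4 were in the top 10%, at a median of 186 TPM. No description matched the pigment gene Arp2. RodA (PDE_00021) had 2.11-fold (2.01 to 2.21) the tags of Ayg1 (PDE_09452, 752 TPM), which shortens a polyketide on the way to melanin. Scytalone dehydratase Arp1 (PDE_04496) had 186 TPM, the oxidase Arb2 (PDE_09492) 112 TPM and Abr1 (PDE_09453), whose locus number follows that of Ayg1, 52.4 TPM. Beyond the names, 5 genes carry the GO process of spore formation. These are PDE_09832 with 99.2% of their tags, the vacuolar serine protease PDE_09396, Arp1, PDE_08059 (184 TPM) and PDE_07461 (8.93 TPM). The melanin term is shared by Arp1 and PDE_09236, which had 92.7% of the tags of that pair. The spore-specific catalase CatA (PDE_05708) had 17.0 TPM. Trehalose is a storage sugar of spores and stressed cells, and the 6 genes with the process term for its synthesis had a median of 28.7 TPM. The term is not limited to enzymes that act on trehalose itself: phosphoglucomutase (PDE_04818, 183 TPM) was highest and held 45.4% of the tags. PDE_05924 (151 TPM), the Tps2 match (PDE_01521, 36.9 TPM) and PDE_08181 (20.5 TPM) followed. In such a bulk sample fewer cells of a kind and less RNA per cell cannot be told apart. The label names mycelia, and the part of conidiophores in these levels was not tested.

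Regulators were mostly modest. CreA (PDE_03168), the carbon catabolite repressor, had 877 tags (261 TPM, rank 336), and HacA (PDE_01436), which answers unfolded protein in the secretory pathway, 699 tags (208 TPM). The pH regulator PacC (PDE_05163) had 39.0 TPM and the APSES factors PDE_07554 and PDE_02036, the family of StuA, 80.1 and 18.8 TPM. LaeA (PDE_00584), a regulator of secondary metabolism, had 21.1 TPM. Its partner VeA (PDE_00650) and the nitrogen regulator AreA (PDE_03334) had 2 tags each. No description matched AbaA, FlbC, ClrB, XlnR, AmyR or VosA by name, so their levels are not given. The 54 genes with the GO function of sequence-specific RNA polymerase II transcription factors had a median of 7.59 TPM. The only one in the top 10%, PDE_04151 (373 TPM), has a best match described as a maltase. PDE_09227, PDE_05378 and PDE_04982 had 98.8, 85.1 and 74.7 TPM, and PDE_00826, PDE_02456 and PDE_09423 had 0 tags.

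Protein kinases, 88 genes, had a median of 9.83 TPM, 3 in the top 10% and 9 with 0 tags. The serine/threonine kinase PDE_09345 had 191 TPM, and PDE_05780 and the splicing kinase Prp4 (PDE_04726) had 119 and 91.4 TPM. PDE_04338 (143 TPM) carries the kinase term although its best match is a prohibitin. The 47 DNA replication genes all had tags, none was in the top 10%, and their median was 14 TPM. PDE_01016, PDE_06234, PDE_02943 and PDE_07365 were highest, from 77.4 down to 47.3 TPM.

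Biosynthetic lists centred near or a little above the median of all identifiers. The pyrG product PDE_04166, the gene that carries the stop mutation in M12, had 8 tags (2.38 TPM, 1.03 to 4.69), the lowest of the 6 pyrimidine synthesis genes. The other 5 ranged from 12.5 to 47.0 TPM, with PDE_02328 at 47.0, PDE_00884 at 41.7, PDE_00098 at 30.4 and PDE_02217 at 23.8 TPM. The 17 purine synthesis genes had a median of 15.8 TPM. PDE_05317 (411 TPM) held 55.6% of their tags, ahead of the tetrahydrofolate synthase PDE_01901 (102 TPM). The 89 amino acid synthesis genes had a median of 28.3 TPM and 8 in the top 10%, led by methionine synthase (PDE_03660, 563 TPM), PDE_00448 (397 TPM), PDE_02002 (215 TPM) and PDE_09309 (167 TPM). PDE_00812 and PDE_01370 had 0 tags.

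The lipid lists lay on either side of the median of all identifiers. Of 13 ergosterol synthesis genes, which make the fungal membrane sterol, isopentenyl-diphosphate isomerase (PDE_07982) was highest with 201 TPM. PDE_02139, ERG3 (PDE_01023) and PDE_03632 had 42.3, 32.7 and 28.9 TPM, the median was 24.7 TPM and hydroxymethylglutaryl-CoA synthase (PDE_00432) had 0 tags. The 8 fatty acid synthesis and desaturation genes had a median of 7.59 TPM, a highest level of 72.0 TPM (PDE_02205) and 0 tags for the alpha subunit of fatty acid synthase (PDE_02135). Growing cells are known to need both of these last enzymes, and why no tag was assigned was not tested.

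Genes of secondary metabolism were varied. Of 18 cytochrome P450 genes, oxidases of many small molecules, 5 were in the top 10% and the median was 27.1 TPM. PDE_05886 had 511 TPM, the benzoate 4-monooxygenase match PDE_08660 362 TPM, PDE_02121 282 TPM and PDE_07206 249 TPM, while PDE_04015 and PDE_09202 had 0 tags. The 17 backbone enzymes that build polyketides, nonribosomal peptides, terpenes and prenylated compounds had a median of 10.1 TPM. Prenyl-transferring enzymes led them, with PDE_10005 at 174, PDE_00149 at 130, PDE_00797 at 91.7 and PDE_00807 at 46.7 TPM. A polyketide synthase (PDE_01235), the siderophore peptide synthase Sid2 (PDE_03416) and a further peptide synthetase (PDE_04543) had 0 tags.

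The annotation terms of the table gave a view that does not depend on names. Of the 397 terms with at least 10 identifiers, 106 are GO functions, 82 GO processes and 209 pathways, and a gene counts whole in each of its terms, so shares overlap. The share of assigned tags reached 1% in 49 classes, but 16 of these fell under it once their most abundant member was set aside. In 43 classes a single gene held 50% or more of the tags. At least 40% of the members, 4 times the background, were in the top 10% in 34 classes.

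Among GO functions, metal ion binding held the largest share, 3.97% over 211 genes, of which superoxide dismutase PDE_00326 made up 31.5%. ATP binding followed with 3.47% over 401 genes and structural constituent of ribosome with 2.98% over 104 genes, both with no dominant member. Nucleotide binding (2.86%), oxidoreductase activity (2.35%), zinc ion binding (1.65%) and DNA binding (1.46%) were likewise spread over many genes. By contrast, 50.6% of hydrolase activity (2.11%) came from PDE_09166, 60.0% of transferase activity (2.07%) from PDE_03437 and 49.2% of NAD binding (1.67%) from formate dehydrogenase PDE_01080. The order rests on counting a gene whole in every term. With tags split evenly over a gene's terms, metal ion binding held 1.90%, below structural constituent of ribosome (2.52%), hydrolase activity (1.95%) and transferase activity (1.92%).

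Ranked by median, the leading functions were translation elongation factor activity (136 TPM, 13 genes), rotary proton-transporting ATPases (121 TPM, 16 genes), structural constituent of ribosome (84.8 TPM), threonine-type endopeptidase activity, the catalytic core of the proteasome (81.4 TPM, 14 genes), and NAD binding (66.5 TPM). The lowest was cellulose binding, 2.83 TPM over 16 genes, 4 of them with 0 tags and none in the top 10%. Its most abundant members were PDE_06067 (163 tags), xylanase B PDE_02101 (147), acetylxylan esterase 2 (PDE_04182, 60) and xylanase I (PDE_05210, 29). UDP-N-acetylmuramate dehydrogenase activity (5.21 TPM, 12 genes), NAD- or NADP-dependent CH-OH oxidoreductases (5.95 TPM, 13 genes), nucleotidyltransferase activity (5.96 TPM, 14 genes) and sequence-specific transcription factors (6.85 TPM, 22 genes) came next. The CH-OH class shows how share and median can part, since formate dehydrogenase PDE_01080 held 92.2% of its 0.888%.

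Among GO processes, oxidation-reduction held 8.24% of assigned tags over 472 genes, 77 of them in the top 10%. Transmembrane transport held 3.03% (218 genes), proteolysis 2.98% (84 genes, 62.0% of it penicillopepsin PDE_07927), translation 2.82% (100 genes) and the general term metabolic process 2.71% (235 genes). Carbohydrate metabolism held 1.23% (108 genes), and response to stress, carbohydrate transport, ATP breakdown and translational elongation 0.717% to 0.818% each. After ATP synthesis the highest medians belonged to nucleosome assembly (164 TPM, 10 genes), a term of 12 genes that the table leaves unnamed (160 TPM), translational elongation (131 TPM, 16 genes) and the citrate cycle (130 TPM). The lowest belonged to pectin breakdown (4.46 TPM, 11 genes), an unnamed term (6.10 TPM, 22 genes), polysaccharide breakdown (6.55 TPM, 19 genes), xylan breakdown (7.74 TPM, 18 genes) and mitosis (7.89 TPM, 12 genes). Polysaccharide breakdown still held 0.544% of tags, 69.8% of them from the glucoamylase PDE_09417.

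Among pathways, the broad maps came first: metabolic pathways with 16.8% (1506 genes), biosynthesis of secondary metabolites with 6.71% (610 genes) and microbial metabolism in diverse environments with 6.71% (554 genes). Ribosome held 3.24% (120 genes, 55 of them in the top 10%), oxidative phosphorylation 2.24%, mineral absorption 2.09% (15 genes) and tyrosine metabolism 2.04% (91 genes). The dioxygenase PDE_09761 made up 59.4% of tyrosine metabolism, whose median was 14.6 TPM. With tags split evenly over terms, metabolic pathways held 4.15%, ribosome 3.19% and mineral absorption 2.09%. Secondary metabolites (1.38%), microbial metabolism (1.18%), oxidative phosphorylation (0.613%) and tyrosine metabolism (0.440%) then came behind them. In mineral absorption PDE_08756 (5185 TPM) stood beside the copper transporters PDE_05901, PDE_05328 and PDE_03438 (1028 TPM), while the median of the map was 28.0 TPM. Maps named after human diseases ranked high and share members with respiration, since 57 of the 96 oxidative phosphorylation genes (59.4%) lie on the Huntington's, Parkinson's and Alzheimer's disease maps alike, where they make up 60.0%, 86.4% and 75% of the genes.

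**Figure D4:**
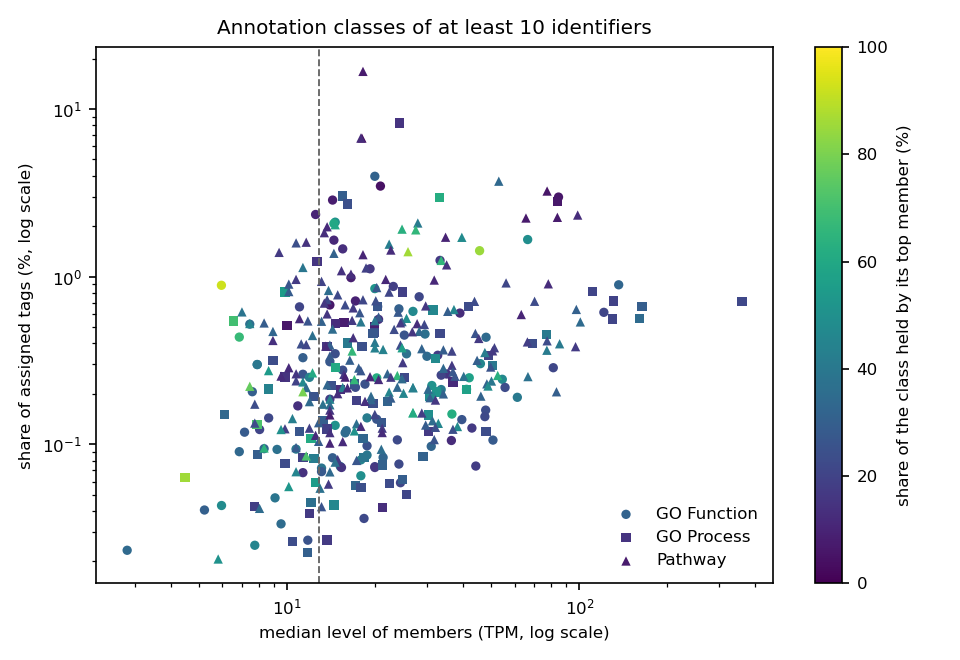
Each point is a GO function, GO process or pathway class of at least 10 identifiers, with the median level of its members (TPM, log scale) against its share of assigned tags (%, log scale); colour gives the share of the class held by its top member (%), and the dashed line is the median of all identifiers, 12.8 TPM. ATP synthesis lies farthest right at 361 TPM, cellulose binding farthest left at 2.83 TPM, and metabolic pathways highest at 16.8%.

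The classes with the largest parts of members without tags were small. Cellulose binding led the functions with 25% of members at 0 tags, against 7.19% of all identifiers, followed by protein kinase activity (11.9% of 42 genes) and phosphoprotein phosphatase activity (11.8% of 17). Among processes, an unnamed term had 18.2% of 22 genes, mitosis 16.7% of 12 genes and intracellular signal transduction 15.4% of 13. Among pathways, the nicotine addiction map had 20% of 10 genes, taurine metabolism 17.4% of 23 genes and bile secretion 16.1% of 31. At these sizes a class differs from the background by a few genes.

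Genes with few or no tags were also the least annotated. Of the 640 identifiers with 0 tags, 35.9% had no best protein match, compared with 20.7% of those with 2 to 9 tags, 4.90% of those with 10 to 99 and none of the 16 with 10000 or more. Those 16 genes held 27.9% of assigned tags, and the 1408 with 2 to 9 tags held 0.336%. The 808 identifiers without a match had a median of 1.19 TPM, and 28.5% of them had 0 tags. Even so, 27 of them were in the top 10% and 4 among the 100 most abundant, including PDE_05881 (1503 TPM) and PDE_06097. Genes with an annotation term, 5253 in number, had a median of 16.7 TPM, and the 3649 without had 8.04 TPM. Class results leave out the genes without a term, and 27.9% of assigned tags, PDE_00327 among them, lie outside every term.

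**Figure D5:**
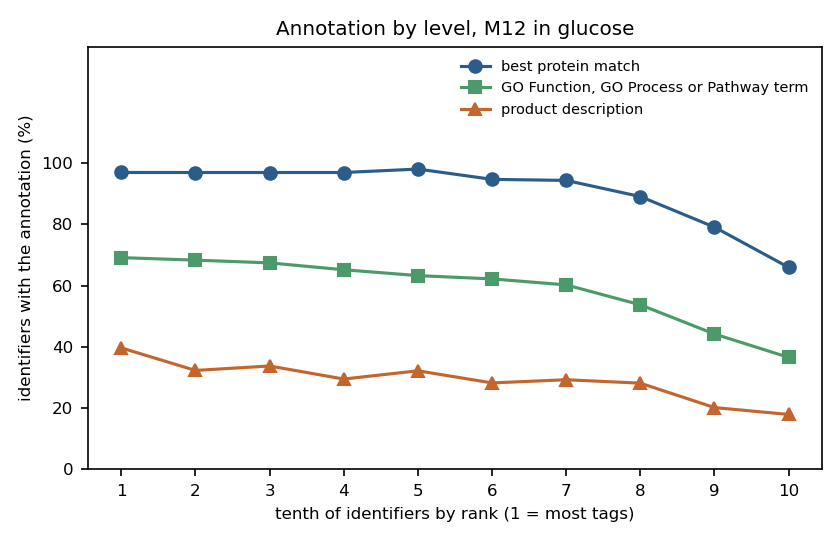
Share of identifiers (%) with a best protein match, with an annotation term and with a product description in each of 10 equal parts of the ranking, from the most tags (1) to the fewest (10). A match falls from 97.0% in the highest 10% of the ranking to 66.0% in the lowest, a term from 69.1% to 36.5% and a description from 39.6% to 17.9%.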

How the data were processed

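Polyadenylated RNA of 1 M12 glucose culture was profiled by tag sequencing: NlaIII cut at CATG, MmeI released the tag, and tags were amplified and sequenced, per the labels' protocols. Tag counts per identifier are used as the authors deposited them, not normalised. The deposited TPM values equal tags scaled to 1000000 of the library total in the file headers, to within 0.005 TPM. Not given in the sources used here are the mapper, the genome build, the annotation and how tags shared by genes were treated, so members of gene families and overlapping genes are uncertain. Gene names come from the table's best protein matches.

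Ranks, shares, medians and exact intervals were computed in Python 3.11.15 with pandas 2.3.3, numpy 2.4.6 and scipy 1.17.1. The intervals were tried on simulated counts that held counting error only, so PCR copies and variation between libraries were not covered. Classes are terms with at least 10 identifiers. Named genes are the 30 most abundant, the 4 most abundant members of a described list and its members at 0 tags where 5 or fewer, listed regulators, and a few said to be chosen later or shown as neighbours or classmates of these. Members and lists were chosen with earlier results of these data known, and list patterns were adjusted to the table's wording. No depth or batch comparison is possible within 1 library.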

Additional observations from a re-analysis of the deposited data

How the results depend on the processing

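Shares depend on the denominator. Against the whole library total, the most abundant gene held 8.26%, the 10 most abundant 14.7% and the 100 most abundant 27.3% of tags, 1405 genes were needed for 50% of the tags, and 30 classes reached 1%. Without PDE_09832 in numerator and denominator, the 10 most abundant genes held 13.2%, the 100 most abundant 36.2%, and 252 genes held 50%. Counting identifiers under 10 tags as not detected raised their number from 640 to 2048 (946 for under 3 tags). With tags split evenly over a gene's terms, 19 classes reached 1% instead of 49, and the shares of 30 named classes were multiplied by 0.169 to 1.00 (median 0.497), which changed their order. Shares of 72 single classes and lists were multiplied by 0.610 with the library total and by 1.16 without PDE_09832. Leaving out identifiers under 3 tags multiplied them by 0.883 at the least. With 1 library, culture, preparation and sequencing variation have no estimate, and 39.0% of tags belong to none of the 8902 identifiers. No paired analysis was possible because a single library is described and nothing is compared.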
